A study of Bos taurus with 13 samples.

Results

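Genes of red blood cells other than the haemoglobins were followed in blood RNA of dairy cows. The group was fixed by gene name and holds 10 genes, namely *ALAS2*, *AHSP*, *SLC4A1*, *EPB42*, *HEMGN*, *KLF1*, *TRIM58*, *GATA1*, *BPGM* and *CA2*. Counts of 9 of them were analysed, of 16095 named genes in all, and *BPGM* was not analysed here. Of the 9 genes, 6 passed the filter on low counts, and *AHSP*, *SLC4A1* and *HEMGN* did not.

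Red blood cells of mammals arise in the bone marrow from erythroblasts that switch on globin and haem synthesis, build a membrane skeleton and then lose their nucleus. The youngest cells without a nucleus, the reticulocytes, still carry RNA, and mature red cells carry very little. In cattle, unlike in many other mammals, healthy adults release few reticulocytes into the blood, so erythroid transcripts are a minor part of blood RNA. *GATA1* and *KLF1* encode transcription factors of the erythroid programme, and *GATA1* is also used by megakaryocytes, eosinophils, basophils and mast cells. *ALAS2* encodes the erythroid enzyme of the rate-limiting step of haem synthesis, and *AHSP* the chaperone of free alpha globin. *SLC4A1* encodes band 3, the anion exchanger that anchors the membrane to its skeleton, and *EPB42* a protein that binds it. *HEMGN* encodes hemogen, a nuclear protein of blood progenitors, *TRIM58* a ubiquitin ligase of late erythroblasts, and *CA2* carbonic anhydrase 2, which converts carbon dioxide to bicarbonate in red cells and in other cells.

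The cows were Italian Red Pied animals at the tails of the distribution of milk cortisol, a marker of stress, with 7 cows of high cortisol (replicates 1 to 7) and 6 cows of low cortisol (replicates 8 to 13). The labels name no treatment of the animals. Blood was taken from the tail vein into tubes that preserve RNA, and globin transcripts were not depleted. Reads on named genes numbered 12198355 to 23709740 per cow in the high group and 11045599 to 28124575 in the low group. Levels are given as CPM (counts scaled to one common library size with TMM factors) within a gene and as FPKM (CPM per kilobase of exon) between genes. The labelled tissue was visible in its markers, with median FPKM of 1273 for *CSF3R* of neutrophils, 802 for *CD3E* of T cells and 686 for *CD79A* of B cells.

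The 9 genes spanned a wide range of levels per length of exon. *ALAS2* was the highest, with a median of 28.4 FPKM over the 13 cows (range 10.2 to 155), above 79.4% of all named genes. It lies on chromosome X of UMD3.1 from 97908616 to 97935775, with 11 exons of 1943 bases in sum. *GATA1*, on chromosome X from 91982660 to 91985592, followed with 17.9 FPKM (8.63 to 52.7), and it was below *ALAS2* in 10 of 13 cows. *CA2*, on chromosome 14 from 79372712 to 79388600, had 7.40 FPKM (3.58 to 14.9). These 3 genes lay above all the others, since the range of *CA2* did not overlap that of *TRIM58*, the next in order. *TRIM58*, on chromosome 7 from 42623076 to 42637851, had 1.77 FPKM (0.615 to 3.50). *KLF1*, on the same chromosome from 13785087 to 13789391, had 1.70 FPKM (1.44 to 2.63), and the ranges of both genes overlapped, *TRIM58* being the higher in only 5 of 13 cows. Of the 7 genes counted in every cow *KLF1* was the steadiest, with a highest CPM 1.83 times the lowest, against 15.1 times for *ALAS2* and 38.2 times for *SLC4A1*.

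The remaining genes were close to the limit of detection. *AHSP*, on chromosome 25 from 27801696 to 27805181, had 1.08 FPKM, but this rests on 0 to 13 counts per cow over only 234 bases of exon. *EPB42*, on chromosome 10 from 38519703 to 38538816, had 0.662 FPKM and 8 to 61 counts. *HEMGN*, on chromosome 8 from 63560433 to 63578800, had 0.128 FPKM and 0 to 26 counts. *SLC4A1*, on chromosome 19 from 44692189 to 44708381, had 0.110 FPKM and 1 to 48 counts over 3496 bases of exon. *AHSP* was above *EPB42* in 8 of 13 cows and *HEMGN* above *SLC4A1* in 10, so both orders are loose. No read of *AHSP* was counted in replicate 3 of the high group and replicate 11 of the low group, and none of *HEMGN* in replicate 12 of the low group. A count of 0 allows up to 3 counts, which in these cows would be 0.246, 0.113 and 0.272 CPM without TMM factors, counting error only. Of all gene counts from 1 to 50 in a library, 66.1% to 70.3% were even, and those of *HEMGN* were even in all 13 cows. Reads are thus not independent of each other, and the precision of the sparse genes is lower than their counts imply.

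**Figure D1:**
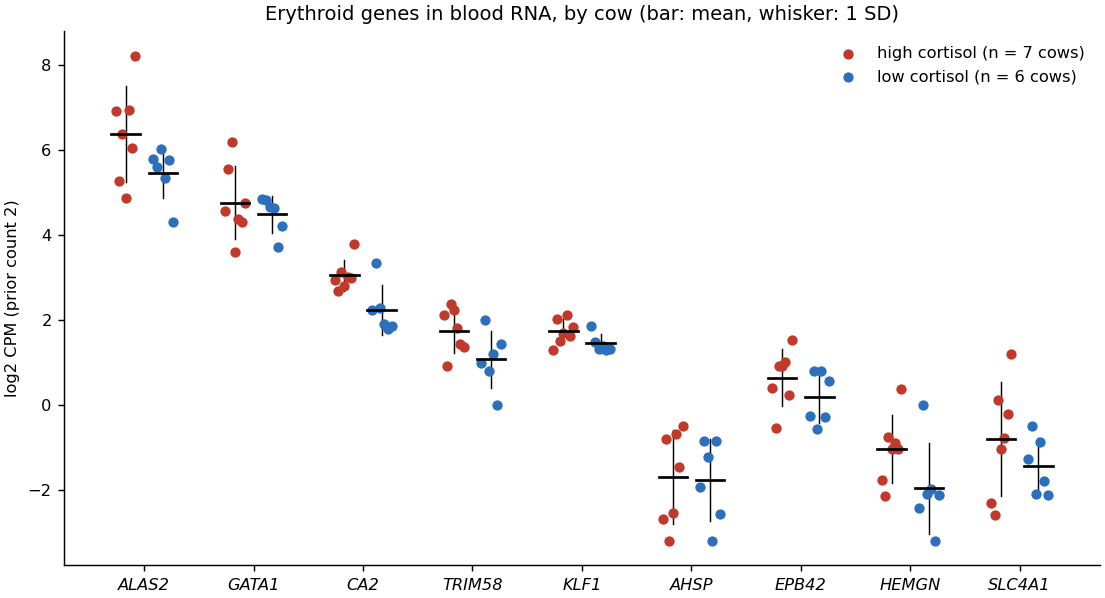
Log2 CPM (prior count 2) of the 9 erythroid genes in each cow, ordered by median FPKM, with 7 cows of high (red) and 6 of low cortisol (blue), the mean as a bar and 1 SD as a whisker. The groups overlap for each gene, and for *CA2* all 7 high cows lie above the median of the low group.

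The first comparison asked whether these genes differed between cows of high and low milk cortisol. The values of all 9 genes were on average higher in the high group, *AHSP* by only 0.07 in mean log2 CPM. Of all tested genes, 53.3% had a positive log2 fold change, a share that covers 6 of the 9 genes. Several of the 9 follow each other over the cows, so their directions are not independent results. *ALAS2* and *CA2* had the smallest p, but no gene passed the adjusted threshold. In edgeR's quasi-likelihood fit, 0 of the 6 genes past the filter were called at an adjusted p of 0.05 (each had an adjusted p of 0.999), beside 0 of all 11033 genes (0%). At an unadjusted p below 0.05 there were 2 of the 6 genes, both higher in the high group, while 0.934% of all genes tested were higher and 1.16% lower at that p. Limma-voom and DESeq2 also called 0 of these genes, with 2 and 3 at an unadjusted p below 0.05. In whole blood, more cells of a type and more RNA per cell cannot be told apart.

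Among the transcription factors, *GATA1* had 12.0 to 73.3 CPM in the high group (median 23.8) and 13.2 to 28.9 CPM in the low group (median 25.2). Its higher mean came from replicates 2 and 3 of the high group, the only 2 cows above all low cows, and 3 of 7 high cows lay above the low median. The log2 fold change, 0.11 without replicate 3, was 0.46 (standard error 0.34, p = 0.198 by edgeR's test, exact permutation p 0.506). *KLF1* had 2.34 to 4.28 CPM in the high group (median 3.13) and 2.34 to 3.56 CPM in the low group (median 2.47), and 6 of 7 high cows lay above the low median. Its log2 fold change was 0.30 (standard error 0.20, p = 0.154 by edgeR's test, exact permutation p 0.0781).

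*ALAS2*, of haem synthesis, had 29.5 to 301 CPM in the high group (median 83.5) and 19.9 to 65.4 CPM in the low group (median 51.6). In the high group 5 cows lay above every low cow, and the other 2, replicates 2 and 4, lay below the low median. The means were 109 CPM ± 92.2 (SD, n = 7) and 47.3 CPM ± 15.7 (SD, n = 6). The log2 fold change was 1.21 (standard error 0.46, p = 0.0188 by edgeR's test), while the exact permutation test of log2 CPM gave p = 0.105. The highest value, 301 CPM, was that of replicate 7 of the high group. When this cow was left out, the log2 fold change was 0.71 and its p in edgeR's test was no longer below 0.05. For *AHSP* the medians were 0.252 CPM in the high and 0.235 CPM in the low group, with 0 to 0.599 and 0 to 0.451 CPM. Its log2 fold change without a filter was 0.36 (standard error 0.80, p = 0.657 by edgeR's test, exact permutation p 0.899), so a difference was not detectable at this depth.

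The membrane genes had wide errors. *SLC4A1* had 0.0579 to 2.21 CPM in the high group (median 0.476) and 0.120 to 0.601 CPM in the low group (median 0.243), with the lowest as well as the highest cows in the high group. Its log2 fold change without a filter was 1.22 (standard error 0.68, p = 0.0882 by edgeR's test, exact permutation p 0.314), and the difference of mean log2 CPM was 0.64. Replicate 7 of the high group, at 2.21 CPM, lay far above the next cow at 0.975 CPM. *EPB42* had 0.579 to 2.81 CPM (median 1.79) in the high group and 0.571 to 1.65 CPM (median 1.05) in the low group, and 4 high cows lay above all low cows. The log2 fold change of *EPB42* was 0.51 (standard error 0.37, p = 0.186 by edgeR's test, exact permutation p 0.228), and it was 0.31 without replicate 7 of the high group.

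*CA2* had the smallest p of the 9 genes in both tests. It had 6.31 to 13.9 CPM in the high group (median 7.83) and 3.33 to 10.1 CPM in the low group (median 4.11), and all 7 high cows lay above the low median. Replicate 9, at 10.1 CPM, was the one low cow within the range of the high group, and the other low cows reached 4.76 CPM at most. The means were 8.46 CPM ± 2.50 (SD, n = 7) and 5.00 CPM ± 2.58 (SD, n = 6). Its log2 fold change was 0.76 (standard error 0.27, p = 0.0120 by edgeR's test, exact permutation p 0.0117), and it stayed between 0.60 and 1.09 with any 1 cow left out.

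*TRIM58* had 1.80 to 5.12 CPM in the high group (median 3.42) and 0.901 to 3.90 CPM in the low group (median 2.04), and 6 of 7 high cows lay above the low median. Its log2 fold change was 0.66 (standard error 0.32, p = 0.0543 by edgeR's test, exact permutation p 0.0664). *HEMGN* had 0.116 to 1.198 CPM (median 0.383) in the high group and 0 to 0.901 CPM (median 0.124) among low cows. Its log2 fold change without a filter was 1.04 (standard error 0.72, p = 0.164 by edgeR's test, exact permutation p 0.0909). The low cow at 0.901 CPM of *HEMGN* was replicate 9, the same animal that was high in *CA2*.

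Haemoglobin counts moved with these results. Of the 4 haemoglobin genes named in the counts, *HBB*, *HBG* and *HBM* were higher in the high group at an unadjusted p below 0.05 in edgeR's fit and *HBQ1* was not, and 0 were called. Together these 4 took 0.0282% to 0.815% of the counts on named genes in the high group and 0.0114% to 0.0552% in the low group. Genes without a name were left out, so any haemoglobin gene among them is not in this share. With the log2 haemoglobin share of each cow as a covariate, the log2 fold change was 0.32 (standard error 0.43) for *ALAS2* and 0.33 (standard error 0.30) for *CA2*. It was -0.20 for *EPB42* and 0.19 for *KLF1*. For *TRIM58* (0.66, standard error 0.42) and *GATA1* (0.45, standard error 0.44) it was about as without the covariate. Under this covariate none of the 6 genes had an unadjusted p below 0.05.

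**Figure D2:**
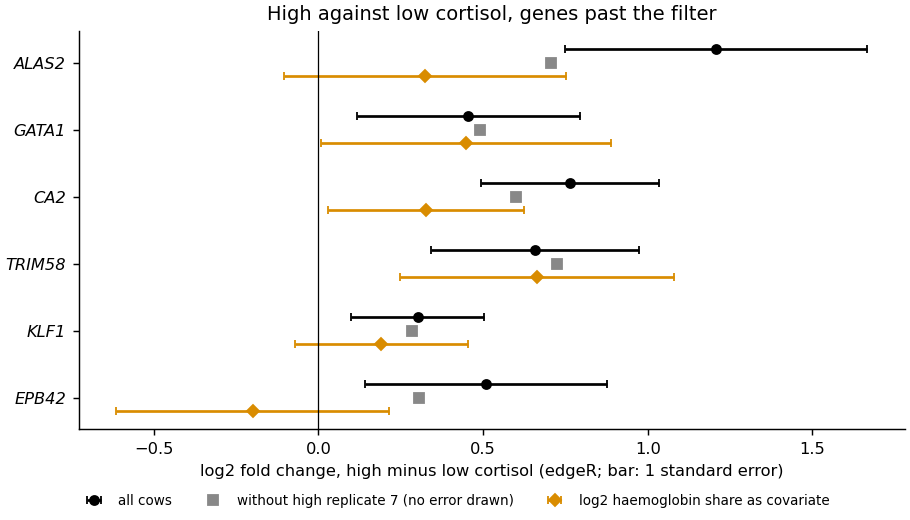
Log2 fold change (high minus low, edgeR) of the 6 genes past the filter with all cows (black), without replicate 7 of the high group (grey squares, no error drawn) and with the log2 haemoglobin share as covariate (orange), bars being 1 standard error. *ALAS2* goes from 1.21 to 0.71 and 0.32, whereas *TRIM58* and *GATA1* keep similar values in each.

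The second question was which of these genes follow each other over the 13 cows. Of the 36 pairs among the 9 genes, 4 had a Pearson's r of log2 CPM of at least 0.7, as did 4.41% of all pairs of tested genes, and the median r was 0.32 beside -0.0025 over all pairs. They lay among *SLC4A1*, *EPB42*, *HEMGN* and *CA2*, and each pair includes *HEMGN* or *SLC4A1*, which have a median of 4 and 8 counts per cow. Neither of these passed the filter, so the share over all pairs of tested genes does not cover such pairs. Among the 6 genes past the filter no pair reached 0.7, and the highest r was 0.67, for *ALAS2* with *CA2*. The median r over the 36 pairs was 0.21 after removal of the group means and 0.22 without replicate 7 of the high group. *HEMGN* and *CA2* had the highest r, 0.90 (Spearman's rho 0.91, permutation p adjusted over the 36 pairs 0.00252 and 7.2e-04), with 0.90 within the high group, 0.91 within the low group and 0.83 without the 2 cows farthest from the median of *HEMGN*. *SLC4A1* and *HEMGN* had an r of 0.79 (rho 0.76, adjusted permutation p 0.0210 and 0.0415), which was 0.69 without replicates 2 and 7 of the high group. *EPB42* and *HEMGN* had an r of 0.78 (rho 0.83, adjusted permutation p 0.0210 and 0.0149), and 0.82 without the 2 farthest cows. *SLC4A1* and *EPB42* had an r of 0.74 (rho 0.71, adjusted permutation p 0.0332 and 0.0639), which was 0.53 without the 2 farthest cows. After removal of the group means the same 4 pairs were at this level, and without replicate 1 of the high group these and 3 more. Without replicate 7 of the high group 1 of the 4 pairs was left, *HEMGN* with *CA2* (0.86), while *SLC4A1* had 0.63 with *EPB42* and 0.69 with *HEMGN*, and *EPB42* had 0.70 with *HEMGN*, just below the limit.

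*TRIM58* came next over all cows, and it took the place of the lost pairs without replicate 7 of the high group, with an r of 0.83 with *HEMGN*, 0.78 with *EPB42* and 0.75 with *CA2*. Over all cows its r was 0.68 with *HEMGN*, 0.66 with *EPB42* and 0.61 with *CA2*, with adjusted permutation p of 0.0692, 0.0701 and 0.106. With *CA2* the relation was -0.06 within the high group and 0.69 within the low group, and the difference between these was not tested. *ALAS2* had an r of 0.67 with *CA2* (rho 0.61, adjusted permutation p 0.0692 and 0.110), but 0.33 once replicate 7 (high) and replicate 13 (low) were left out, so its size over all cows rests on those cows, and it was 0.87 within the high and 0.29 within the low group. *KLF1*, *AHSP* and *GATA1* followed none of the others at an r of 0.7. Against the mean of the 8 other genes, r ran from 0.91 for *CA2* and 0.89 for *HEMGN* down to 0.21 for *GATA1* and 0.11 for *AHSP*.

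**Figure D3:**
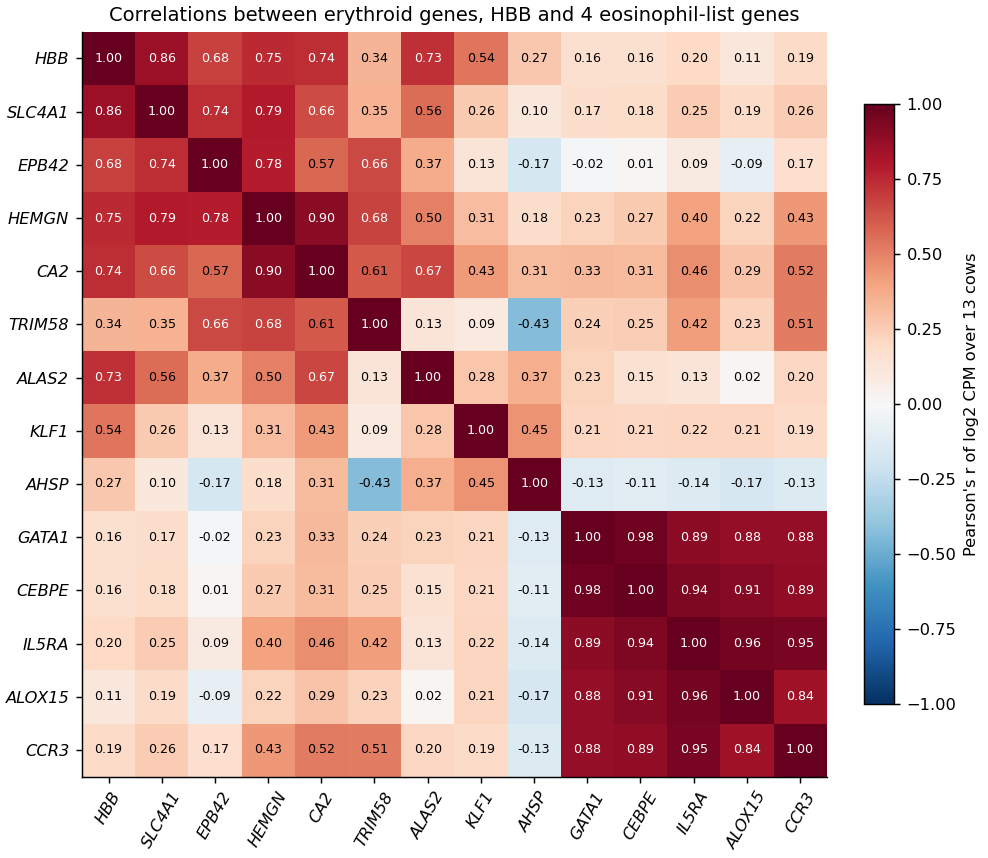
Pearson's r of log2 CPM over 13 cows between *HBB*, the 9 erythroid genes and 4 genes of the eosinophil list, red for positive and blue for negative. Over all cows *SLC4A1*, *EPB42*, *HEMGN* and *CA2* have an r of 0.68 to 0.86 with *HBB*, and *GATA1* has one of 0.88 to 0.98 with *CEBPE*, *IL5RA*, *ALOX15* and *CCR3*.

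*HBB*, the most abundant of the 4 haemoglobin genes named in the counts, served as a reference for red cell RNA. Of the 9 genes, 4 had an r of at least 0.7 with it, where 0.254% of all tested genes did, 28 genes in all. Of these 4, *CA2* and *ALAS2* were among the tested genes, and *SLC4A1* and *HEMGN* were not. *SLC4A1* was the closest, with an r of 0.86 (rho 0.83, permutation p adjusted over the 9 genes 0.00144 and 0.00684). Its r was 0.92 within the high group, 0.80 within the low group and 0.82 without replicates 5 and 7 of the high group, the 2 cows farthest from the median of *HBB*. *HEMGN* (r 0.75, rho 0.73) and *CA2* (r 0.74, rho 0.70) followed, both with adjusted permutation p of 0.00966 for r and 0.0219 for rho, and both fell to an r of 0.59 or 0.58 without these 2 cows. Their r was 0.95 and 0.83 within the high group and 0.33 and 0.37 within the low group, a difference that was not tested. *EPB42* had an r of 0.68 (rho 0.74, adjusted permutation p 0.0178 and 0.0219), and 0.44 without the 2 cows.

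*ALAS2*, whose product supplies haem to haemoglobin, had an r of 0.73 with *HBB* (adjusted permutation p 0.0111) but a rho of 0.48 (adjusted permutation p 0.154), and an r of 0.32 without the 2 cows, so the size of the r over all cows rests on them. Within the high and the low group its r was 0.64 and 0.62. High replicate 1 had 122 CPM of *ALAS2*, the third highest level, with only 271 CPM of *HBB*, while high replicate 4 had 29.5 CPM of *ALAS2* with 866 CPM of *HBB*. *KLF1* (r 0.54, rho 0.59), *TRIM58* (0.34, 0.40), *AHSP* (0.27, 0.28) and *GATA1* (0.16, 0.12) did not pass the adjusted threshold. Without replicate 7 of the high group, which held 7507 CPM of *HBB* against 2642 in the next cow, *SLC4A1* alone kept an r of at least 0.7 (0.75).

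**Figure D4:**
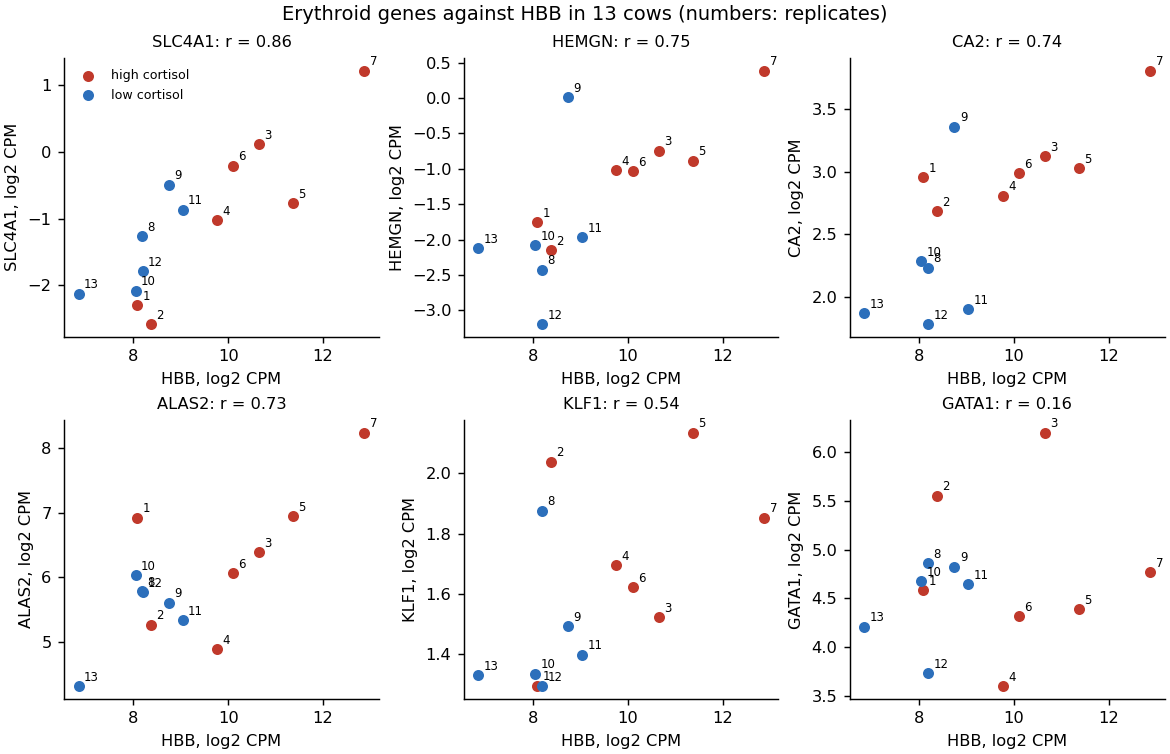
Log2 CPM of 6 erythroid genes against log2 CPM of *HBB*, 1 point per cow with its replicate number, red for high and blue for low cortisol. The r over all cows is 0.86 for *SLC4A1*, 0.73 for *ALAS2*, with replicates 5 and 7 at the upper end, and 0.16 for *GATA1*.

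*GATA1* followed genes of eosinophils more closely than any of the other 8 erythroid genes, with which its r was at most 0.33. Of the 9 genes of the eosinophil and basophil list with counts, 7 passed the filter and 4 had an r of at least 0.7 with *GATA1*, against 1.32% of all tested genes, 146 in all. *CEBPE*, a transcription factor of late granulocyte differentiation, had an r of 0.98 (rho 0.92). *IL5RA*, a subunit of the receptor for the eosinophil growth factor interleukin 5, had 0.89 (rho 0.94). *ALOX15*, a lipoxygenase of eosinophils, and *CCR3*, their eotaxin receptor, had an r of 0.88 each (rho 0.88). Permutation p adjusted over the 9 genes were at most 4.05e-04 for these 4 genes, and r lay between 0.80 and 0.96 without replicates 3 and 4 of the high group, the cows farthest from the median of *GATA1*. Within the groups r was 0.86 to 0.98 in the high and 0.80 to 0.97 in the low group. The highest cow was replicate 3 of the high group for both *GATA1* (73.3 CPM) and *CEBPE* (60.7 CPM), and replicate 2 the second (46.8 and 37.5 CPM).

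The other genes of the same list had a lower r. *PRG3*, of the eosinophil granule, had an r of 0.37 with *GATA1*. *CPA3*, a mast cell protease, had 0.34, *MS4A2* and *FCER1A*, subunits of the IgE receptor, -0.17 and -0.23, and *HDC*, which makes histamine, -0.23. *PRG3* (0 to 64 counts per cow) and *HDC* (0 to 14) did not pass the filter, and *MS4A2* had 1 to 16 counts. The r of these sparse genes is therefore imprecise, while *CPA3* had 36 to 133 and *FCER1A* 128 to 467 counts. *GFI1B*, a repressor that works with *GATA1*, was among the 10 genes most like it (r 0.92), with *GPR4* (0.98), *CUEDC1* (0.95) and *ALOX5* (0.94), the last a lipoxygenase of leukotriene synthesis. Of the 8 tested genes of the platelet list, 0 reached an r of 0.7 with *GATA1*, where 1.32% of all tested genes did. For so few genes a count of 0 is near that share and sets the list apart from no other. Among the 65 tested genes of the other red cell lists described below, *GFI1B*, *GABARAPL2* (0.81), *PIM1* (0.71) and *RNF10* (0.71) reached it, beside the same 1.32%. The summed level of the eosinophil and basophil list was 248 to 1232 CPM in the high group and 199 to 573 CPM in the low group. All of its 7 tested genes had a positive log2 fold change (median 0.42, beside 0.01 over all genes), and 0 had an unadjusted p below 0.05 between the groups (edgeR).

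**Figure D5:**
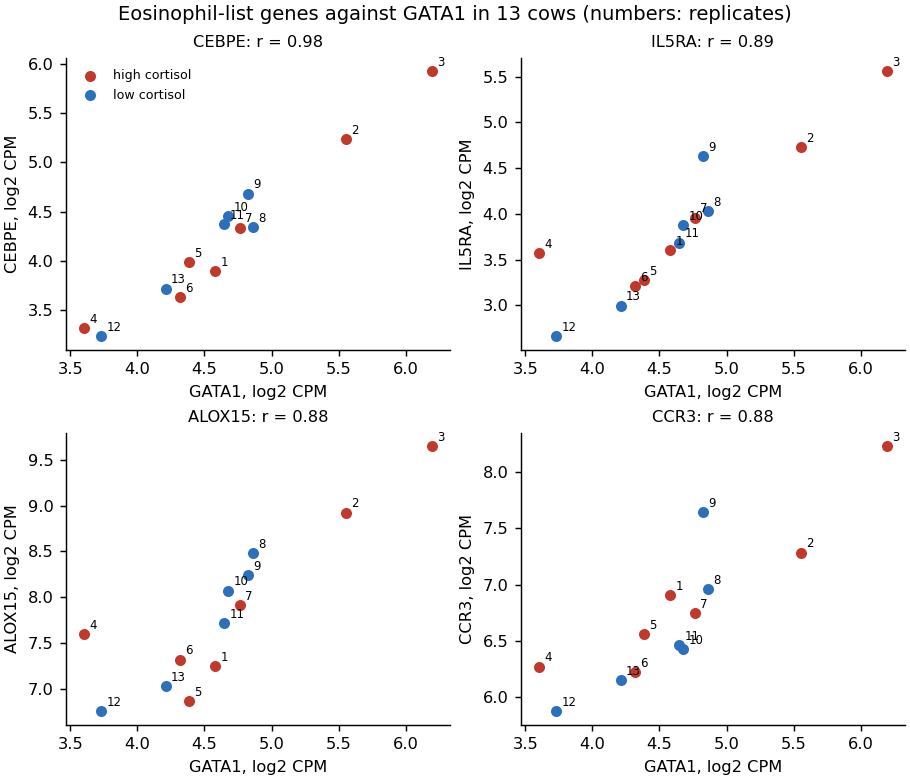
Log2 CPM of *CEBPE*, *IL5RA*, *ALOX15* and *CCR3* against log2 CPM of *GATA1*, 1 point per cow with its replicate number, red for high and blue for low cortisol. The points rise together in both groups, with replicates 2 and 3 of the high group at the top.

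Other genes of red cell biology were taken from lists of haem synthesis, membrane and skeleton, transcription factors, erythropoietin signalling and iron uptake, reticulocyte maturation and red cell enzymes. Of 90 such genes, 74 had counts and 65 were tested, and 0 were called by edgeR (0% of all genes), with 1 higher and 2 lower in the high group at an unadjusted p below 0.05, where 0.934% and 1.16% of all genes lay. Their median log2 fold change was -0.01, beside 0.01 over all genes tested, and 32 of 65 were positive, beside 53.3% of all genes. None of the 65 had an r of at least 0.7 with *HBB*, where 0.254% of all tested genes did, so this count is near that share. Several had levels far above those of the 9 genes, as *NFE2* (556 FPKM), *GABARAPL2* (313 FPKM) and *PRDX2* (312 FPKM), and such genes also serve in white blood cells.

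Of 13 tested haem synthesis genes, 0 were higher and 1 lower at an unadjusted p below 0.05. That gene was *SLC25A37*, the mitochondrial iron importer (log2 fold change -0.45, standard error 0.12, adjusted p 0.999 by edgeR's test), and its r with *ALAS2* was -0.29. *FAM210B*, a mitochondrial protein, and *UROD*, an enzyme of the pathway, had log2 fold changes of 0.09 and -0.01. Of 6 tested membrane and skeleton genes, 0 had such a p, with *GYPC* (0.01), *STOM* (-0.11) and *EPB41* (0.00) as the most abundant. Of 12 transcription factors and cofactors, 1 was higher, *GATA2* (0.42, standard error 0.19), whose r with *GATA1* was 0.68. *LMO2*, *LDB1* and *NFE2* had log2 fold changes of 0.03, -0.07 and -0.34. In erythropoietin signalling and iron uptake, 0 of 10 genes had such a p, with *PIM1* (0.06), *SOCS3* (-0.19), *STAT5A* (-0.09) and *STAT5B* (-0.20). In reticulocyte maturation, 0 of 15 did, with *GABARAPL2* (0.02), *RNF10* (-0.14), *BNIP3L* (-0.08) and *FBXO7* (-0.19). Of 9 red cell enzymes, 1 was lower, *ADA* (-0.47, standard error 0.19), with *PRDX2* (-0.12), *CYB5R3* (-0.02) and *BLVRB* (0.15) as the most abundant.

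Some membrane genes were too low for the filter and were described only by their r with *HBB*. *RHAG*, of the Rh complex, had 0 to 14 counts per cow and an r of 0.76 with *HBB*, and *DMTN*, an actin-bundling protein of the skeleton, 0 to 46 counts and an r of 0.65. *KEL*, of the Kell blood group, had 0 to 2 counts and an r of 0.63. Of the 6 tested genes of this list, *XK* had the highest r with *HBB* (0.37) and *STOM* the lowest (-0.65). These r over 13 cows rest on few counts, as do those of *HEMGN* and *SLC4A1*, and are given as a description.

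Markers of other blood cells were compared as well, by edgeR at an unadjusted p below 0.05, at which 1.16% of all genes were lower and 0.934% higher. Of 7 neutrophil genes, 2 were lower in the high group, *CSF3R* (log2 fold change -0.45) and *S100A9* (-0.44), with summed levels of 4821 to 9637 CPM in the high and 7438 to 10292 CPM in the low group. The list was not uniform, since *S100A8* (0.45) and *S100A12* (0.25) had positive log2 fold changes. With *EPB42*, *CSF3R* had an r of -0.79, *S100A9* -0.58, *S100A8* -0.08 and *S100A12* -0.16. Of 7 monocyte genes 1 was lower (*CD68*, -0.53), while 5 had positive log2 fold changes (median of the list 0.19). Of 9 proliferation genes 2 were lower (*MKI67*, -0.59, and *BUB1*, -0.53) and 0 had a positive value (median -0.50). Of 8 platelet genes 1 was lower (*GP1BB*, -0.61) and 0 had a positive value (median -0.34). Of 7 B cell genes 1 was higher (*CR2*, 0.61), and of 9 T cell genes 0 had such a p. The summed levels overlapped between the groups for all of these lists, and their part in the erythroid results was not tested.

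Genes outside the group with a pattern most like the mean of the 6 genes past the filter were *HBG* (r 0.83), *PROM1* (0.81), *HBB* (0.80), *PEX10* (0.79), *ADRB1* (0.79), *CYB561D1* (0.79), *ELAC1* (0.79), *TRUB2* (0.77), *CEP112* (0.77) and *bta-mir-2383* (0.77) over 13 cows. *HBG* and *HBB* are thus among the 3 most alike. No haemoglobin entered the mean, but *ALAS2* and *CA2*, with an r of 0.73 and 0.74 with *HBB*, did. Replicate 7 of the high group was the highest cow in both the mean (0.80) and *HBB* (7507 CPM), and values without it are not given. The other haemoglobins named in the counts, *HBM* and *HBQ1*, are not among the genes listed here. *HBG* and *HBB* are similar in sequence, so the split of their reads is uncertain.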

How the data were processed

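Blood RNA of 13 cows was measured by RNA-Seq, with 1 library per cow. The deposited values are counts, the whole numbers of reads that the authors assigned to the exons of each gene name, without normalization. The headers of the count tables name featureCounts 1.4.6-p3 and Ensembl 88 models of UMD3.1 and set no option for strand or multi-mapping reads, while the labels and methods name STAR 2.7.3, Subread 1.6.5 and ARS-UCD1.2. The headers also carry a goat folder and animal numbers that differ from those of the tables, so groups rest on the labels alone. Reads of genes without a name, 13.9% to 16.7% of a library, were left out.

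CPM (TMM factors), FPKM (from the exon lengths in the count tables) and log2 CPM (prior count 2) were computed. Groups were compared with edgeR 4.0.16 (robust quasi-likelihood, R 4.3.3, no covariates) over 11033 of 16095 genes kept by filterByExpr (minimum count 10, minimum total 15), with Benjamini-Hochberg adjustment. Single genes also had an exact two-sided permutation test of mean log2 CPM over 1716 assignments of cows (smallest p 0.00117). Correlations had two-sided permutation p from 100000 resamples. The fit was tested on simulated data first. Alternatives were DESeq2 1.42.0, limma-voom (limma 3.58.1), RLE factors, no filter, a fit that is not robust, a fit without haemoglobin genes, a covariate for the log2 share of haemoglobin counts, an adjusted p of 0.1, Spearman's rho, a prior count of 0.5, removal of group means, CPM or means in place of median FPKM, and each cow left out.

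The members and gene lists were chosen with earlier results of these data known. Genes outside the members were named by rule: in each erythroid list the 3 with the highest median FPKM and the smallest p, and the 10 most like the score of the tested members. Other genes were named after their values were seen. A planned search of promoter motifs was not run.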

Additional observations from a re-analysis of the deposited data

Results flagged for a closer look

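In 3 cases the highest cow of a group lay far from the next by Dixon's ratio of gap to range, taken on log2 CPM. The cases came from 18 groups of cows (9 genes in 2 groups), where 0.9 groups would pass by chance. The levels below are in CPM, which is not the scale of the ratio. *CA2* had 13.9 CPM in replicate 7 of the high group, against 8.61 CPM in the next cow. *CA2* had 10.1 CPM in replicate 9 of the low group, against 4.76 CPM in the next cow. *KLF1* had 3.56 CPM in replicate 8 of the low group, against 2.703 CPM in the next cow.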

How the results depend on the processing

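Of 120 alternative values of the log2 fold changes of the 6 genes past the filter, 119 kept their direction, and the exception was *EPB42* with the haemoglobin covariate (-0.20). That covariate also left 0 genes at an unadjusted p below 0.05, where the fit without it gave 2, and the cause was not tested. With 1 cow left out the number was 2 or 3, but without replicate 7 of the high group the genes were *TRIM58* and *CA2* and not *ALAS2*, as with limma-voom. DESeq2 called 1 gene over all genes, which is none of these. Pairs at an r of at least 0.7 numbered 4 to 7 with 1 cow left out, the 7 without replicate 1 of the high group. Without replicate 7 of that group there were 4, of which 1 was among the 4 found over all cows. Genes at that r with *HBB* numbered 1 to 5 with 1 cow left out, 1 without replicate 7 of the high group, and 1 after removal of group means. By CPM, which is not divided by length, 3 of the 9 genes kept their place in the order of levels. Depth limits *AHSP*, *HEMGN* and *SLC4A1*, with a median of 4, 4 and 8 counts per cow.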

Other observations

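The 10 genes most like *ALAS2* over 13 cows held no haemoglobin, as was also the case for *AHSP*, *EPB42*, *KLF1*, *TRIM58* and *GATA1*. Those most like *ALAS2* included *SNORA30* (r 0.85), *STX1A* (0.85), *S1PR5* (0.81), *TRPM2* (0.79) and *GZMM* (0.77). *S1PR5* and *GZMM* are known from natural killer and cytotoxic T cells. *ALAS2* also had an r of 0.72 with *MS4A1*, the CD20 antigen of B cells. *KLF1* was most like *KCTD5* (0.86) and *MRC2* (0.86). These values were picked after all genes had been ranked and are given with no test.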
